A study of Danio rerio with 4 samples.

Results

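The genes described here encode membrane carriers of sugars, short organic acids, bile acids, vitamins, nucleosides, fatty acids and organic ions, measured in the gut of adult zebrafish (Danio rerio). They were chosen by name: families slc2, slc5, slc10, slc13, slc16, slc17, slc19, slc22, slc23, slc27, slc28, slc29, slc35 (the a subfamily only), slc37 and slco, with at least 10 counts summed over the libraries. The count table lists 14781 genes, of which 87 matched by name and 67 had enough counts; the other 20 had at most 8 counts, and 13 of them had 0. The lowest totals inside the limit were 11 counts for slco1c1 and 13 for slc37a4b, and the highest outside were 8 for slc5a3a and 4 for slc5a12.

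Solute carriers of the enterocyte, the absorptive cell of the gut lining, take nutrients up at the brush border and release them on the blood side. Uptake of glucose, citrate, sulfate, bile acids and ascorbate at the brush border is coupled to sodium, whose gradient is kept by the sodium pump. Exit of glucose and of many monocarboxylates is by facilitated carriers, and bile acids are recovered mostly in the distal small intestine of mammals by slc10a2 and carried through the cell by fabp6.

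Whole-gut messenger RNA was sequenced from 2 irf8 st95 homozygous mutant fish and 2 fish with a single st95 copy (heterozygotes), all adult and untreated, with 1 animal per library. irf8 encodes a transcription factor needed for macrophage development in zebrafish, and the comparison asks which gut transcripts differ when both copies are mutated. Every fish carried at least 1 mutant copy, so the heterozygotes are not wild type. A whole gut holds epithelium, muscle, immune cells and any attached pancreas or liver, and fewer cells of a type cannot be told apart from less RNA per cell.

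Library totals were 6389553 and 9351100 counts in homozygotes and 6350840 and 10391963 in heterozygotes (replicates 1 and 2 of each). A total of 3 counts, the limit that a count of 0 allows, equals 0.444 and 0.277 CPM in homozygotes and 0.512 and 0.328 CPM in heterozygotes; CPM is the count relative to a library total scaled by TMM, which makes it comparable between libraries. irf8 itself had 3.70 and 2.31 CPM in homozygotes and 5.12 and 5.47 CPM in heterozygotes, which does not by itself check the genotype, since a mutant allele can still be transcribed. Markers of the brush border were abundant in all 4 libraries, as in vil1, the villin gene, with 1471 and 2550 CPM in homozygotes and 2610 and 1023 CPM in heterozygotes. The brush border list also holds lipid-binding and apolipoprotein genes. Its 16 markers found, of 20 listed, took 8.82% and 11.6% of counts in homozygotes and 12.3% and 3.198% in heterozygotes. Much of that came from apoa1a, with 37300 and 29650 CPM in homozygotes and 66280 and 13750 CPM in heterozygotes. The share is thus not a measure of brush border genes alone. The 26 exocrine pancreas markers found, of 32 listed (1 at 0 throughout), took 4.97% and 0.535% in homozygotes and 1.65% and 36.8% in heterozygotes. Heterozygous replicate 2 therefore stood apart, with the largest share of pancreas markers and the smallest of brush border markers, and 19 liver markers took 0.538% of its counts against 0.0390% and 0.138% in homozygotes and 0.0151% in heterozygous replicate 1. Smooth muscle markers (10 found) took 0.307% of homozygous replicate 1, 0.0492% of homozygous replicate 2, and 0.0300% and 0.157% of the heterozygous libraries.

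The transporters together took a larger share of all counts in homozygotes, and slc13a2 made up most of the difference. Their summed share was 0.595% and 0.914% of counts in homozygotes, against 0.360% and 0.309% in heterozygotes (exact Clopper-Pearson 95% intervals 0.589 to 0.601, 0.908 to 0.920, 0.355 to 0.364 and 0.306 to 0.312; intervals cover counting error only). slc13a2 encodes the sodium-coupled carrier of citrate and succinate that mammals use in the intestine and kidney. It held 52.6% and 57.4% of all transporter counts in homozygotes and 33.5% in both heterozygous libraries. Without slc13a2 the sum was 2664 and 3362 CPM in homozygotes and 2593 and 2337 CPM in heterozygotes. On this scale the groups still did not overlap, but homozygous replicate 1 and heterozygous replicate 1 were close. Exocrine pancreas markers took 36.8% of heterozygous replicate 2, which lowers the share of every other gene there. Shares with those markers removed were not computed.

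**Figure D1:**
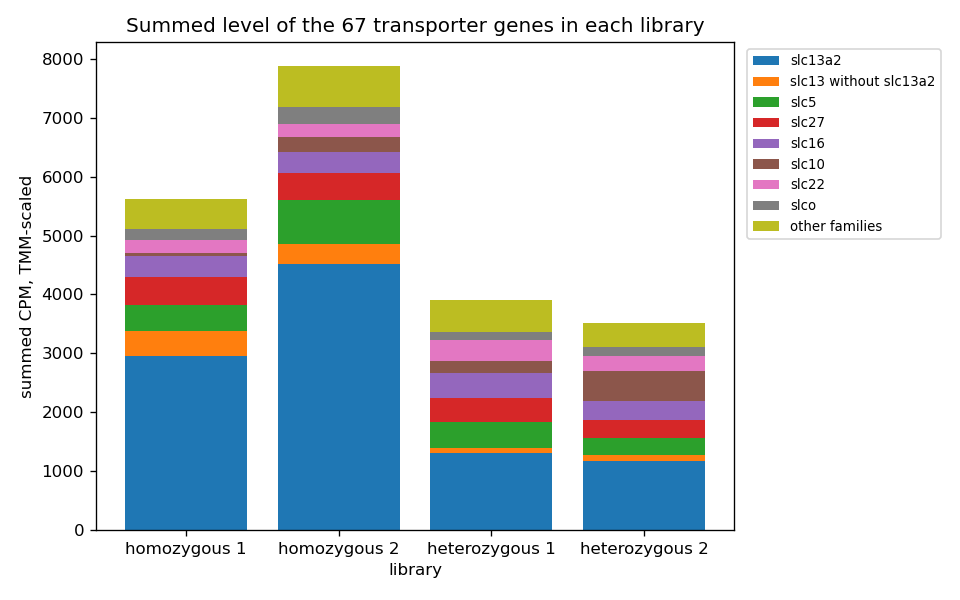
Summed TMM-scaled CPM of the 67 transporter genes in each library, stacked by slc13a2, the rest of slc13 and the other families. The totals are 5626 and 7884 CPM in the homozygous libraries and 3899 and 3515 CPM in the heterozygous libraries, and the slc13a2 block (2962 and 4523 against 1306 and 1178 CPM) holds most of the difference.

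Expression was concentrated in few genes. Per kilobase of exon length, 20 of the 67 genes averaged at least 20 CPM per kb over the 4 libraries and 14 averaged under 1 CPM per kb. slc13a2 led at 991 CPM per kb, which ranked it 157 among all 14781 genes by this level. It was followed by slc27a2a, a very-long-chain acyl-CoA synthetase of the fatty acid transport family (145 CPM per kb), slc10a2, the ileal bile acid carrier (130), slc5a1, the sodium-glucose cotransporter of the brush border (91.5), slc16a10, a carrier of aromatic amino acids (83.5), and slc13a1, the sodium-sulfate cotransporter (82.9). The 10 genes with the highest level per kb held 82.1% and 82.2% of the transporter counts in homozygotes and 71.7% and 74.6% in heterozygotes.

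In edgeR's quasi-likelihood test, adjusted over all genes after Benjamini and Hochberg, 0 of the 54 transporter genes that passed the count filter were called at an adjusted p of 0.05, and 0 of all 9701 genes tested (0%). The lowest adjusted p was 0.699 for the transporters and for the whole table alike. At an unadjusted edgeR p under 0.05 there were 5 transporters of 54, or 9.26%, beside 6.47% of all genes: slc13a1, slc5a2, slc16a3, slc2a5 and slc13a5a, each higher in homozygotes. DESeq2's Wald test called 1 transporter, slc13a1, and 0.546% of all genes. The single genes below are therefore given by their values, and with 2 fish a group an exact permutation test cannot go below p = 0.333.

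Among the 54 tested genes 39 had a higher and 15 a lower fitted level in homozygotes. That is 72.2% higher, where 46.7% of all tested genes were higher and 53.3% lower, and the median log2 fold change was 0.27 against -0.05 over all genes. As a share of genes higher, this excess shrank most when either replicate 2 library was left out. Without heterozygous replicate 2, 34 of 55 transporters and 5255 of all 9870 genes were higher. The medians were then 0.44 and 0.08, no closer together than with all libraries. The excess in the share was smallest without homozygous replicate 2. In that fit 61 transporters were tested, including genes too low in counts to test with all libraries, so the set was not the same. Of these 61, 29 were higher and their median was -0.11, while the median over the 54 genes alone stayed slightly positive. Of all 10164 genes then tested, 4492 were higher, with a median of -0.10. Brush border markers lay in the same direction, with 11 of 15 tested genes higher, a median log2 fold change of 0.67 and 0 called by edgeR. DESeq2 called 3 of these, mep1b, slc15a1b and slc6a19a.1, while the lipid carriers fabp2 and apoa1a, which hold much of the marker counts, had log2 fold changes of -0.12 and -0.26. The part of these markers in the transporter result was not tested. In 12 genes (22.2%) both homozygous libraries lay above both heterozygous ones, where 19.9% of all genes did, so the share was near the background. In 5 genes (9.26%) both lay below, where 19.3% of all genes did. Homozygous replicate 2 was the highest library for 26 of the 54 genes and heterozygous replicate 2 the lowest for 20, against 26.0% and 24.1% of all tested genes. For the 44 genes with at least 10 counts in every library, median absolute log2 differences were computed. They were 0.61 between the homozygous fish, 0.73 between the heterozygous fish and 0.37 between the genotype means. Means of 2 fish vary less than single fish, so the last value is not on equal terms with the others. In 9 of the 44 genes the genotype difference exceeded both differences within a genotype, and the share over all genes was not counted.

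**Figure D2:**
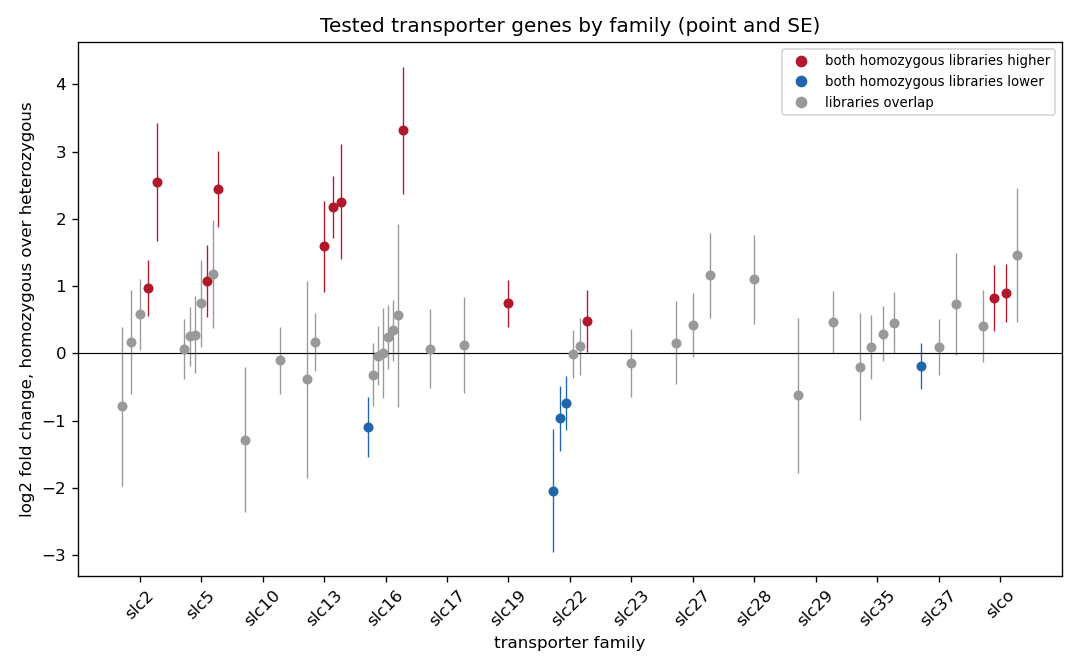
Log2 fold change (homozygous over heterozygous) with its SE for the 54 tested transporter genes, by family; red marks genes with both homozygous libraries higher, blue both lower, grey overlapping libraries. The slc13 family reaches 2.26, slc5 and slco lie above 0, and the genes with non-overlapping lower libraries are in slc16, slc22 and slc37.

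The sulfate and carboxylate carriers of slc13 showed the widest separation. Of 5 members, all tested, 4 were higher and 1 lower, with a median log2 fold change of 1.59, which was 0.91 without homozygous replicate 2. In 3 of the 5 both homozygous libraries were higher, where 19.9% of all tested genes were. slc13a1 (danRer10 chromosome 25, 27480806 to 27489519, plus strand, 15 exons) had 391 and 262 CPM in homozygotes, against 78.0 and 66.9 CPM in heterozygotes. Both homozygous fish were thus more than 3 times above either heterozygous fish, while fish of a genotype were close. It averaged 326 ± 91.4 CPM in homozygotes and 72.5 ± 7.82 CPM in heterozygotes (SD, n = 2 each), 4.50-fold higher, with a log2 fold change of 2.17 ± 0.46 (SE) and an edgeR adjusted p of 0.699. DESeq2 gave an adjusted p of 0.00233, at the low end of a range of 0.00233 to 0.999 over the alternatives, and the log2 fold change stayed between 1.88 and 2.43 with any 1 library left out.

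slc13a2 (chromosome 21, 39055311 to 39073444, plus strand, 12 exons) had 2962 and 4523 CPM in homozygotes, against 1306 and 1178 CPM in heterozygotes. The groups did not overlap, and the heterozygous fish differed by little. Its log2 fold change was 1.59 ± 0.67 (SE; 3.01-fold; edgeR adjusted p = 0.699, DESeq2 adjusted p = 0.0670), with 1.25 to 1.89 when 1 library was left out. slc13a5a, a citrate carrier gene (chromosome 21, 40030576 to 40059796, minus strand, 12 exons), had 11.3 and 46.1 CPM in homozygotes, against 2.90 and 8.97 CPM in heterozygotes. Replicate 2 was the higher fish in both genotypes, and the log2 fold change of 2.26 ± 0.85 (SE) was 0.91 without homozygous replicate 2. slc13a3, a high-affinity dicarboxylate carrier of mammalian kidney and liver, had 17.8 and 17.3 CPM in homozygotes and 10.7 and 20.4 CPM in heterozygotes, which overlap. slc13a4, the other sulfate carrier of the family, had 0 and 27 counts in homozygotes and 11 and 14 counts in heterozygotes, so its direction (log2 fold change -0.39 ± 1.47, SE) depended on which homozygous fish was used. slc13a3 and slc13a4 were named after their values were seen.

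**Figure D3:**
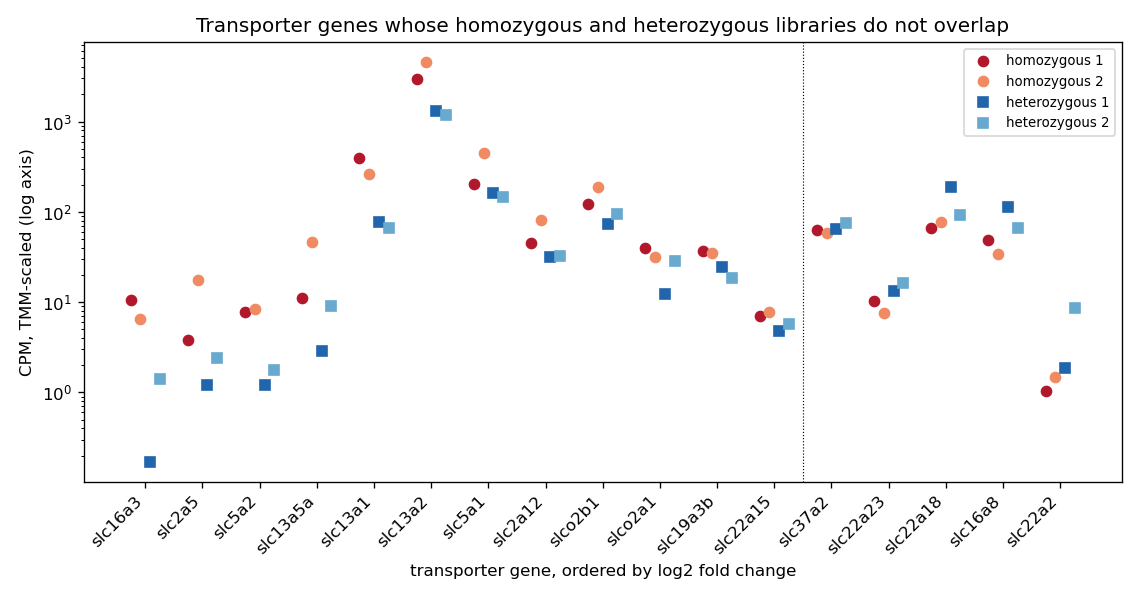
TMM-scaled CPM (log axis) in each library for the 17 tested transporter genes whose genotypes do not overlap, ordered by log2 fold change, with the 12 higher in homozygotes left of the dotted line and the 5 lower right of it. slc13a1 and slc5a2 show close replicates, whereas slc16a3, slc2a5 and slc13a5a spread within a genotype.

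The slc5 family holds sodium-coupled carriers of sugars and inositol, and also of vitamins and monocarboxylates. Its 7 tested members were 7 higher and 0 lower, with a median log2 fold change of 0.74. The median was 0.13 without homozygous replicate 2 (6 of 7 higher), 0.17 without heterozygous replicate 2 (4 of 7 higher), 1.24 without homozygous replicate 1 (6 of 7 higher) and 1.18 without heterozygous replicate 1 (7 of 7 higher). slc5a1 (chromosome 10, 17177667 to 17201748, minus strand, 15 exons) had 203 and 444 CPM in homozygotes, against 161 and 146 CPM in heterozygotes. Both homozygous fish were higher, replicate 2 by far more, and the log2 fold change of 1.08 ± 0.54 (SE) was 0.40 without that fish. slc5a2, whose mammalian counterpart recovers glucose in the kidney (chromosome 15, 14666563 to 14689416, minus strand, 15 exons), was a low-abundance gene with 53 and 92 counts in homozygotes and 7 and 16 counts in heterozygotes. That is 7.85 and 8.49 CPM in homozygotes and 1.19 and 1.75 CPM in heterozygotes, with fish of a genotype close together and 5.45-fold between genotypes. Its log2 fold change of 2.45 ± 0.57 (SE; edgeR unadjusted p = 0.00574, adjusted p = 0.699; DESeq2 adjusted p = 0.112) ranged from 2.25 to 2.75 with 1 library left out. Kidney tubule markers, 8 of 14 found, took 0.00898% and 0.00657% of counts in homozygotes and 0.0104% and 0.0112% in heterozygotes, nearly all of it from trpm7 and aqp8a.1, and their part in the result was not tested. The kidney genes pax2a and slc12a3 had at most 4 counts in any library. Another gene of this list, lrp2a, had 1 and 4 counts in homozygotes and 7 and 24 counts in heterozygotes.

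The remaining slc5 genes overlapped between genotypes. slc5a9, a mannose and fructose carrier in mammals, had 87.1 and 89.1 CPM in homozygotes and 111 and 57.7 CPM in heterozygotes. slc5a11, an inositol carrier named after its values were seen, had 36.4 and 84.0 CPM in homozygotes and 53.3 and 18.9 CPM in heterozygotes. In both genes heterozygous replicate 2 was lowest. slc5a8l, a gene named for its likeness to the sodium-coupled monocarboxylate carrier slc5a8, had 78.5 and 91.6 CPM in homozygotes and 92.5 and 50.2 CPM in heterozygotes. slc5a6a, a paralog of the biotin and pantothenate carrier, had 3.41 and 17.3 CPM in homozygotes and 4.44 and 4.70 CPM in heterozygotes, so homozygous replicate 2 alone stood out, and its log2 fold change of 1.18 was -0.43 without that fish. Its paralog slc5a6b, named after its values were seen, had 16.1 and 10.6 CPM in homozygotes and 16.1 and 6.13 CPM in heterozygotes.

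Of the facilitative hexose carriers of slc2, 7 of 13 names had 10 counts and 5 were tested, 4 higher and 1 lower (median log2 fold change 0.58). Without homozygous replicate 2 the median was 0.24 (3 of 5 higher). Without heterozygous replicate 1 the low-count genes slc2a10 and slc2a3a were tested too, and the median over these 7 was -0.21 (3 of 7 higher). In that fit the 5 genes tested with all libraries had log2 fold changes of 2.19 (slc2a5), 1.31 (slc2a2), 0.98 (slc2a12), -0.25 (slc2a13b) and -1.31 (slc2a8). slc2a2, the basolateral glucose carrier of enterocytes in mammals (chromosome 2, 26161269 to 26182323, plus strand, 11 exons), was the most abundant at 35.4 CPM per kb. It had 90.8 and 139 CPM in homozygotes and 106 and 47.4 CPM in heterozygotes, overlapping, with a log2 fold change of 0.58 ± 0.53 (SE). slc2a5, the fructose carrier (chromosome 23, 22689572 to 22691081, plus strand, 5 exons) was counted 26 and 190 times in homozygotes and 7 and 22 times in heterozygotes. This was 3.85 and 17.5 CPM in homozygotes and 1.19 and 2.41 CPM in heterozygotes, without overlap but with a 4.55-fold difference between the homozygous fish. Its log2 fold change of 2.55 ± 0.88 (SE; unadjusted p = 0.0294, adjusted p = 0.699) was 1.07 without homozygous replicate 2, and its exon model in the table is only 476 bases long. slc2a12, a glucose carrier related to the insulin-responsive type of mammals (chromosome 23, 31681730 to 31706715, minus strand, 6 exons), had 45.3 and 80.8 CPM in homozygotes and 31.6 and 32.8 CPM in heterozygotes. Both homozygous fish were higher, with a log2 fold change of 0.97 ± 0.41 (SE; edgeR adjusted p = 0.699).

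Among the other slc2 genes, slc2a13b, a proton-coupled inositol carrier, had 2.22 and 6.09 CPM in homozygotes and 2.22 and 5.14 CPM in heterozygotes, and slc2a8 had 0.296 and 3.60 CPM in homozygotes and 1.71 and 5.14 CPM in heterozygotes; both were named after their values were seen. In both genes replicate 2 was the higher fish of each genotype. slc2a3a, a high-affinity glucose carrier of neurons in mammals, had 9 and 2 counts in homozygotes and 0 and 9 counts in heterozygotes and was too low to test. slc2a1a, the ubiquitous glucose carrier of mammals, had 1 count over all 4 libraries and so did not reach the limit.

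**Figure D4:**
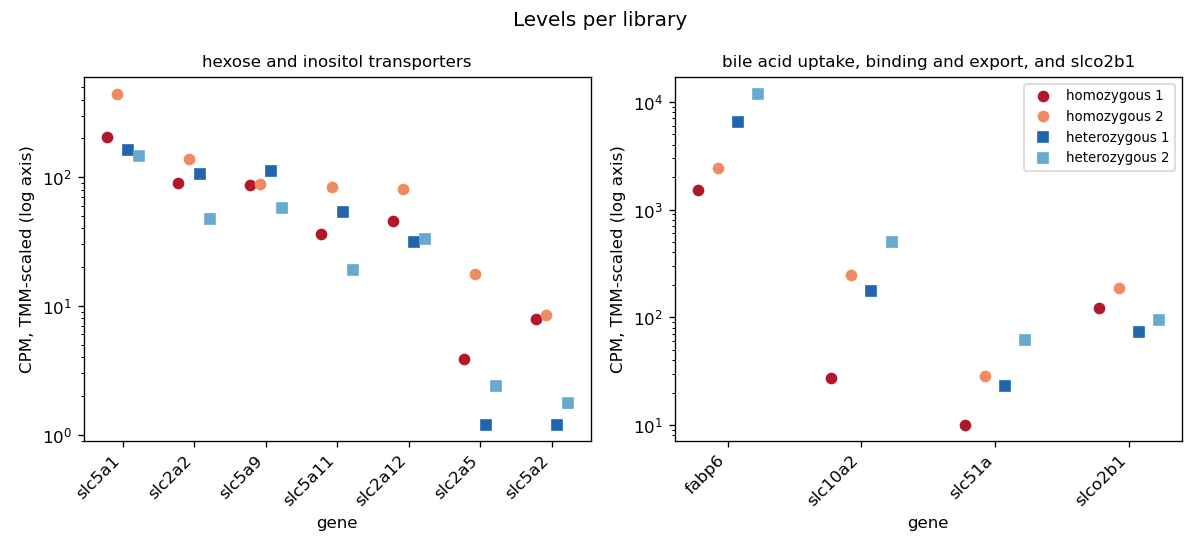
TMM-scaled CPM (log axis) in each library for hexose and inositol carriers (left) and for bile acid genes with slco2b1 (right). In the left panel heterozygous replicate 2 is lowest for slc5a1, slc2a2, slc5a9 and slc5a11. The genotypes do not overlap there for slc5a1, slc2a12, slc2a5 and slc5a2. In the right panel slc10a2 and slc51a share their order of libraries, and fabp6 and slco2b1 separate the genotypes.

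Enzymes of sugar digestion and hexose metabolism were listed as the company of these carriers. The 26 genes found, of 31 listed, were all of sugar metabolism, with no digestive enzyme among them, and 23 were tested. None was called by edgeR, 11 were higher and 12 lower, the median log2 fold change was -0.04, and 2 had an unadjusted p under 0.05. hk2, a hexokinase gene, had 7.85 and 6.27 CPM in homozygotes and 11.9 and 32.5 CPM in heterozygotes. gck, the glucokinase gene of liver and pancreatic islets, had 1.18 and 1.57 CPM in homozygotes and 1.02 and 79.0 CPM in heterozygotes, and thus was high in the single library with the most liver and pancreas RNA. DESeq2 called gck (adjusted p = 0.0414, against 0.699 in edgeR) and no other gene of this list. gale, which interconverts UDP-galactose and UDP-glucose, had 32.1 and 49.7 CPM in homozygotes and 94.4 and 60.3 CPM in heterozygotes.

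The bile acid carrier slc10a2 (chromosome 9, 27528761 to 27533937, plus strand, 6 exons) varied widely between fish of a genotype. It had 27.2 and 249 CPM in homozygotes, against 175 and 497 CPM in heterozygotes. Homozygous replicate 1 was lowest by far, 9.13-fold below homozygous replicate 2, and homozygous replicate 2 lay between the heterozygous fish. The log2 fold change was -1.28 ± 1.08 (SE; edgeR adjusted p = 0.760) and ranged from -3.62 to -0.35 with 1 library left out. slc10a7, a family member that takes part in calcium regulation and glycosylation, had 26.4 and 12.5 CPM in homozygotes and 25.4 and 16.3 CPM in heterozygotes. slc10a4, known from synaptic vesicles, had 1 and 0 counts in homozygotes and 0 and 23 counts in heterozygotes, so heterozygous replicate 2 held nearly all of it, and the ratio of summed counts scaled for depth was 26.98 in favour of heterozygotes with a counting interval of 4.38 to 1111.

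Of the bile acid genes listed beside these carriers 14 of 24 were found and 13 tested, 10 higher and 3 lower, with a median log2 fold change of 0.49. edgeR called 0 of them, and 2 had an unadjusted p under 0.05. fabp6, the ileal bile acid binding protein gene, was far more abundant than slc10a2, with 1505 and 2444 CPM in homozygotes and 6443 and 11860 CPM in heterozygotes. Both homozygous fish were lower (log2 fold change -2.21 ± 0.84, SE; edgeR adjusted p = 0.699), and DESeq2 called it at an adjusted p of 0.0121. slc51a, a subunit of the basolateral bile acid exporter named after its values were seen, had 10.1 and 28.4 CPM in homozygotes and 23.04 and 61.6 CPM in heterozygotes. slc10a2 and slc51a ordered the 4 fish alike. abcg8, a sterol efflux pump subunit, had 56.0 and 129 CPM in homozygotes and 38.1 and 38.8 CPM in heterozygotes. cyp7a1a, an entry enzyme of bile acid synthesis in the liver, had 1.78 and 421 CPM in homozygotes and 25.4 and 11.6 CPM in heterozygotes, so homozygous replicate 2 alone was high.

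Monocarboxylate carriers of slc16 went both ways, with 5 of 8 tested members higher, 3 lower, and the family median was a log2 fold change of 0.13. slc16a3, the lactate exporter of glycolytic cells (chromosome 12, 33249273 to 33256672, minus strand, 5 exons), had the largest positive log2 fold change of the 54 tested transporters. Its reads numbered 72 and 70 counts in homozygotes and 1 and 13 counts in heterozygotes, or 10.7 and 6.46 CPM in homozygotes and 0.171 and 1.42 CPM in heterozygotes. Both homozygous fish lay above both heterozygous fish, with a log2 fold change of 3.32 ± 0.94 (SE; 9.97-fold; edgeR unadjusted p = 0.0140, adjusted p = 0.699; DESeq2 adjusted p = 0.0956). That value was 2.61 without heterozygous replicate 1 and 5.51 without heterozygous replicate 2, since it leaves 1 count in the heterozygous group. T lymphocyte markers moved with slc16a3: the 16 found, of 18 listed, took 0.0206% and 0.0102% of counts in homozygotes and 0.00280% and 0.00437% in heterozygotes, and their part in the result was not tested.

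slc16a8, a lactate carrier known from the retinal pigment epithelium of mammals (chromosome 12, 19077861 to 19082323, plus strand, 6 exons), was lower in both homozygous fish. It had 49.2 and 34.3 CPM in homozygotes, against 112 and 65.9 CPM in heterozygotes, a log2 fold change of -1.09 ± 0.44 (SE; 2.13-fold lower; edgeR unadjusted p = 0.0502, adjusted p = 0.699) that stayed between -1.44 and -0.63 with 1 library left out. slc16a10, the most abundant member per kb, differed by less than the spread between fish, with 206 and 187 CPM in homozygotes and 239 and 163 CPM in heterozygotes. slc16a9a, a carnitine carrier in mammals, had 34.1 and 53.9 CPM in homozygotes and 44.7 and 24.8 CPM in heterozygotes. slc16a1, the widespread lactate and butyrate carrier, named after its values were seen, had 13.2 and 25.4 CPM in homozygotes and 12.8 and 19.7 CPM in heterozygotes. slc16a12b, a creatine carrier likewise named after its values, was nearly absent from 1 heterozygous fish, with 157 and 156 counts in homozygotes and 2 and 226 counts in heterozygotes.

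Of 18 genes found for lactate, pyruvate and ketone body metabolism and for the chaperones of these carriers, 16 were tested, 6 higher and 10 lower, at a median log2 fold change of -0.30 and 0 called. hmgcs1, which makes the precursor of sterols and ketone bodies in the cytosol, had 26.5 and 47.1 CPM in homozygotes and 190 and 85.5 CPM in heterozygotes (edgeR unadjusted p = 0.0169, adjusted p = 0.699). ldhba, a lactate dehydrogenase gene, had 55.4 and 39.9 CPM in homozygotes and 58.4 and 116 CPM in heterozygotes. mpc1, a subunit of the mitochondrial pyruvate carrier, had 40.9 and 24.4 CPM in homozygotes and 59.9 and 41.1 CPM in heterozygotes. In these genes both homozygous fish were lower. bsg, the gene for basigin, the chaperone of slc16a1 and slc16a3 in mammals, had 187 and 238 CPM in homozygotes and 137 and 149 CPM in heterozygotes; it was named after its values were seen.

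Organic cation, carnitine and anion carriers of slc22 had 6 tested members, 2 higher and 4 lower, with a median log2 fold change of -0.37. slc22a18 (chromosome 7, 39266773 to 39280915, minus strand, 10 exons), an orphan member of the family, had 65.8 and 76.9 CPM in homozygotes, against 188 and 91.4 CPM in heterozygotes. Both homozygous fish were lower, but heterozygous replicate 1 lay well above replicate 2, and the log2 fold change of -0.97 ± 0.48 (SE) was -0.32 without heterozygous replicate 1. slc22a2, an organic cation carrier of the mammalian kidney, had 7 and 16 counts in homozygotes and 11 and 78 counts in heterozygotes. Its log2 fold change of -2.04 ± 0.91 (SE) was -0.57 without heterozygous replicate 2, which held most of its reads. slc22a23, whose substrate is not known, had 10.4 and 7.57 CPM in homozygotes and 13.3 and 16.4 CPM in heterozygotes, without overlap (log2 fold change -0.73 ± 0.40, SE). slc22a4 and slc22a21, carnitine and cation carrier genes that lie next to each other on chromosome 21 (45859517 to 45865189 and 45866697 to 45880814, both plus strand), were near equal between genotypes. slc22a4 had 108 and 96.1 CPM in homozygotes and 118 and 72.1 CPM in heterozygotes, and slc22a21, named after its values were seen, had 28.6 and 37.4 CPM in homozygotes and 38.1 and 28.3 CPM in heterozygotes. Reads shared by such neighbouring relatives could be lost or split in counting. slc22a15, also named afterwards, was slightly higher in both homozygous fish, at 7.11 and 7.75 CPM against 4.78 and 5.80 CPM in heterozygotes.

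The organic anion transporting polypeptides of slco had 10 matching names, 6 with enough counts and 4 tested, of which 4 were higher (median log2 fold change 0.86). slco2b1, a carrier of steroid sulfates and drugs found in the intestine of mammals (chromosome 21, 40116962 to 40151123, minus strand, 15 exons), was the most abundant at 42.8 CPM per kb. It had 123 and 187 CPM in homozygotes, against 73.1 and 93.5 CPM in heterozygotes. The groups did not overlap, and the log2 fold change was 0.89 ± 0.43 (SE; 1.86-fold; edgeR adjusted p = 0.699). slco2a1, the prostaglandin carrier (chromosome 6, 27633479 to 27674703, plus strand, 5 exons), had 40.0 and 32.0 CPM in homozygotes and 12.3 and 28.3 CPM in heterozygotes, apart by little, with a log2 fold change of 0.82 ± 0.49 (SE). slco3a1 had 2.96 and 7.75 CPM in homozygotes and 0.512 and 3.28 CPM in heterozygotes. slco1d1 had 23.2 and 54.6 CPM in homozygotes and 37.4 and 21.7 CPM in heterozygotes. In these genes the genotypes overlapped. The slco1f genes, with names slco1f1 to slco1f4, had at most 1 count each in the 4 libraries together.

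Vitamin and nucleoside carriers had few members. slc19a3b, a thiamine carrier (chromosome 18, 46372451 to 46382453, minus strand, 5 exons), was close within each genotype, at 36.6 and 35.2 CPM in homozygotes and 24.6 and 18.4 CPM in heterozygotes. Both homozygous fish were higher (log2 fold change 0.74 ± 0.35, SE; edgeR unadjusted p = 0.0780, adjusted p = 0.699). slc23a1, the sodium-coupled ascorbate carrier of the brush border, overlapped, at 50.2 and 47.3 CPM in homozygotes and 77.0 and 31.0 CPM in heterozygotes. slc28a1, a sodium-coupled pyrimidine nucleoside carrier, was high in homozygous replicate 2 alone, with 19.3 and 76.2 CPM in homozygotes and 22.2 and 22.3 CPM in heterozygotes. slc29a2, an equilibrative nucleoside carrier, had 23.3 and 11.7 CPM in homozygotes and 12.0 and 13.2 CPM in heterozygotes. slc29a4, a monoamine carrier, stayed under 3 CPM in every library.

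Fatty acid transport proteins of slc27, which join coenzyme A to long fatty acids, had 3 tested members, all with a positive log2 fold change and overlapping libraries. slc27a2a (chromosome 18, 62993 to 73846, plus strand, 10 exons) had 452 and 356 CPM in homozygotes and 357 and 247 CPM in heterozygotes, a log2 fold change of 0.42 ± 0.48 (SE). slc27a4, the family member of mammalian enterocytes, had 25.9 and 83.6 CPM in homozygotes and 30.7 and 18.4 CPM in heterozygotes, so homozygous replicate 2 was high, and its log2 fold change of 1.16 was 0.07 without that fish. slc27a1a had 8.29 and 25.2 CPM in homozygotes and 11.1 and 18.9 CPM in heterozygotes.

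Carriers of the membranes inside the cell had log2 fold changes between -0.20 and 0.73. slc37a4a, which moves glucose 6-phosphate into the endoplasmic reticulum for the last step of glucose release, had 78.6 and 104 CPM in homozygotes and 103 and 68.3 CPM in heterozygotes. slc37a2, a relative needed in zebrafish microglia for phagosome shrinkage, had 63.4 and 59.0 CPM in homozygotes and 64.4 and 74.7 CPM in heterozygotes, just apart, with a log2 fold change of -0.19 ± 0.34 (SE). The 18 mononuclear phagocyte markers found, of 20 listed, took 0.0516% and 0.0675% of counts in homozygotes and 0.0845% and 0.121% in heterozygotes. Most of that share came from grn1, grn2, cd74a and cd74b. Of the 17 markers tested, 12 were lower and 5 higher in homozygotes. Among the lower, c1qa had 0 and 1 counts in homozygotes and 12 and 41 in heterozygotes, and c1qc had 2 and 4 against 26 and 65. Among the higher, spi1b had 45 and 72 counts in homozygotes and 14 and 43 in heterozygotes. The part of these markers in the slc37a2 result was not tested. slc37a1 had 2.07 and 3.60 CPM in homozygotes and 1.19 and 2.19 CPM in heterozygotes. The nucleotide sugar carriers of the Golgi ranged from -0.20 to 0.46 in log2 fold change over 4 tested members: slc35a1, the CMP-sialic acid carrier, had 11.1 and 21.9 CPM in homozygotes and 12.1 and 11.9 CPM in heterozygotes. slc35a4 had 49.6 and 36.5 CPM in homozygotes and 44.2 and 26.3 CPM in heterozygotes, and slc35a3a, a UDP-N-acetylglucosamine carrier, had 13.5 and 20.1 CPM in homozygotes and 20.7 and 10.9 CPM in heterozygotes. slc35a5 was at 1.93 and 3.88 CPM in homozygotes and 1.71 and 4.92 CPM in heterozygotes. slc17a5, the lysosomal sialic acid exporter, followed the replicate number in both genotypes, at 10.2 and 29.2 CPM in homozygotes and 9.22 and 27.02 CPM in heterozygotes. slc17a9b, a vesicular nucleotide carrier, had 3.26 and 4.98 CPM in homozygotes and 4.27 and 3.61 CPM in heterozygotes.

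Of the 67 genes 13 did not pass the count filter, with totals of 11 to 222 counts, and 8 of these were highest in heterozygous replicate 2, the library with the most pancreas and liver RNA. They were looked at after their values were seen. slc22a16, a carnitine carrier, had 4 and 4 counts in homozygotes and 0 and 214 counts in heterozygotes. slc27a1b had 1 and 8 counts in homozygotes and 1 and 138 counts in heterozygotes, and slc27a6 had 0 and 3 counts in homozygotes and 4 and 34 counts in heterozygotes (ratio 14.9 in favour of heterozygotes, counting interval 4.71 to 75.2). In each the same heterozygous fish held nearly all reads, while the other heterozygous fish was near the homozygous ones. slc16a4 had 2 and 9 counts in homozygotes and 0 and 30 counts in heterozygotes. slc35a3b, a paralog of slc35a3a, differed in that both heterozygous fish had it, with 1 and 1 counts in homozygotes and 10 and 8 counts in heterozygotes, a ratio of 10.6 in favour of heterozygotes with a counting interval of 2.53 to 93.8. Also low were slc37a4b, slc2a10, slc29a1a, slco4a1 and slco1c1, which, with slc10a4 and slc2a3a above, had at most 25 counts each over the 4 libraries. slco1c1 had 0 and 3 counts in homozygotes and 0 and 8 counts in heterozygotes. Its ratio was 3.13 in favour of heterozygotes, with a counting interval of 0.751 to 18.3 that includes equality. These intervals pool the reads of both fish and cover no spread between fish, so they do not test a genotype difference.

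Genes that maintain the sodium gradient and anchor carriers in the brush border were listed beside these families, and 11 of 14 found were tested. They gave 4 higher and 7 lower genes, a median log2 fold change of -0.37, 0 calls and 0 with an unadjusted p under 0.05. atp1a1a.3, a sodium pump subunit gene, had 1.48 and 7.84 CPM in homozygotes and 5.29 and 70.5 CPM in heterozygotes, so heterozygous replicate 2 alone was high. atp1a1b had 2.07 and 0.277 CPM in homozygotes and 1.71 and 6.13 CPM in heterozygotes, and slc9a3.1, a sodium-proton exchanger gene, had 0.444 and 1.75 CPM in homozygotes and 5.46 and 0.766 CPM in heterozygotes. Transcription factors of intestine and metabolism were mostly higher, 12 of 16 tested with 4 lower, a median log2 fold change of 0.76, 8 with both homozygous fish higher and 0 with both lower (19.9% and 19.3% of all genes), and 0 called. Without homozygous replicate 2 the set tested was larger, and 10 of 17 were higher with a median of 0.12. cdx1b, the caudal factor of the intestinal epithelium, had 35.5 and 94.2 CPM in homozygotes and 22.2 and 10.8 CPM in heterozygotes (log2 fold change 1.98 ± 0.63, SE; edgeR unadjusted p = 0.0213, adjusted p = 0.699). srebf1, a factor of lipid synthesis, had 27.2 and 84.5 CPM in homozygotes and 14.9 and 15.6 CPM in heterozygotes, and gata4 had 3.26 and 9.32 CPM in homozygotes and 1.37 and 2.30 CPM in heterozygotes. As for slc5a1, slc2a5 and slc28a1, homozygous replicate 2 was the highest library for these 3 factors.

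**Figure D5:**
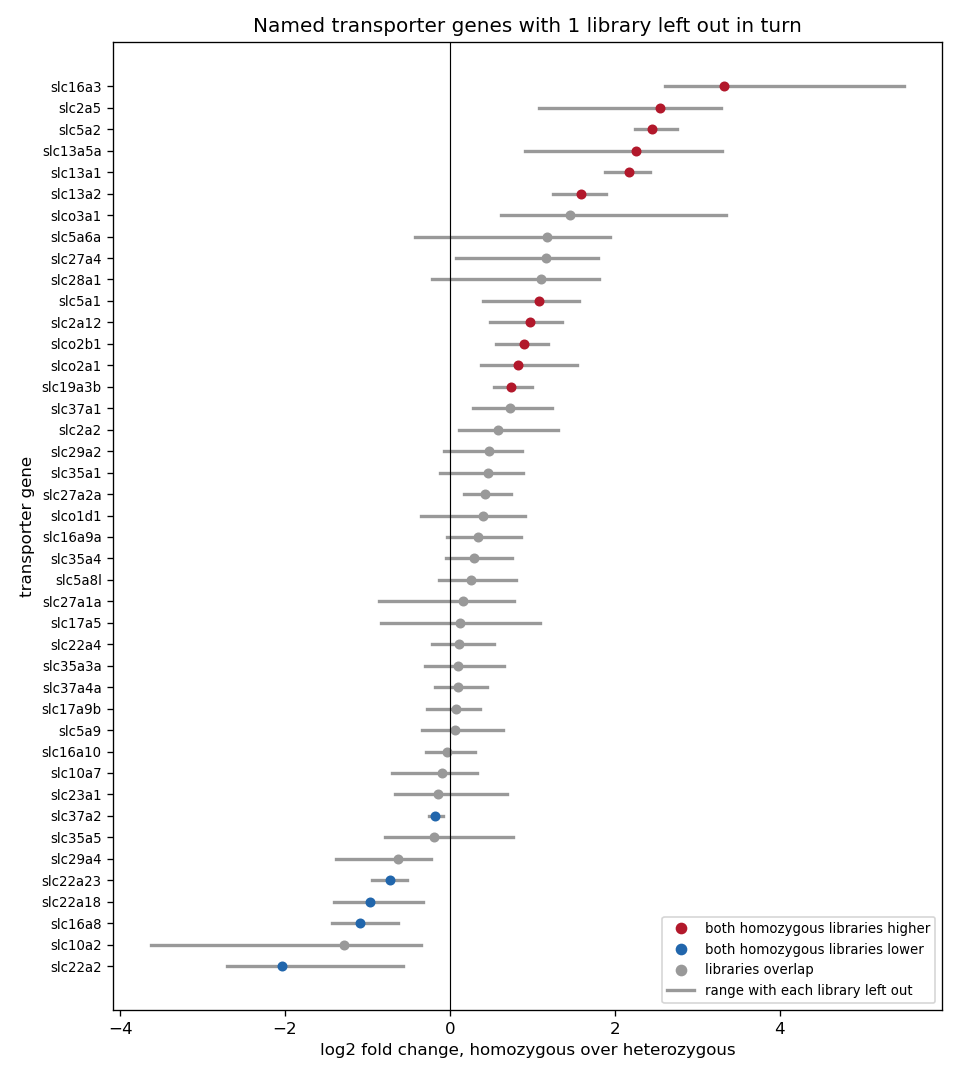
Log2 fold change (homozygous over heterozygous) of the 42 named and tested transporter genes with all libraries (points, coloured as by library overlap) and its range with each library left out in turn (grey bars). slc16a3, slc5a2, slc13a1, slc13a2 and slc2a5 stay above 1 throughout, whereas the bars of slc5a6a, slc28a1 and slc27a1a are among those that cross 0.

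The authors' deposited table of 76 selected genes names 0 of the genes described here.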

How the data were processed

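Per the labels' protocols, total RNA of whole gut was captured on oligo-dT beads and made into stranded libraries. The deposited values are whole-number counts per gene, made by the authors with featureCounts (Subread 1.5.2, paired reads, reverse strand, danRer10 UCSC gene annotation), per the file headers. DESeq2 and R 3.3.1 appear in the submitters' processing notes. The aligner used was not given in sources used here. A second deposited table of 76 genes gives the authors' log2 fold changes and p-values, and was used just to look for member names. Positions are as the count table lists them, on danRer10.

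With edgeR 4.0.16 under R 4.3.3, filterByExpr (minimum count setting 10, total count setting 15) kept 9701 genes, libraries were scaled by TMM, and genotypes were compared by the quasi-likelihood F test with no further term, with Benjamini-Hochberg adjustment over all genes at 0.05. Standard errors are those implied by the F statistic. The fit was run on simulated counts with a fixed spread between libraries and no differences in tissue content. That run checked the code, and does not measure how the fit performs on these fish. Members with 3 or fewer counts in a genotype are given by ratios of summed counts. Members and lists were chosen with earlier results of these data known. Named genes are, per family, the 3 with the smallest p and the 2 highest per kb, members at 0 in 1 genotype, and fixed landmarks; related lists give 3 genes each. List names matched by name or by a synonym of assembly GRCz12tu. Libraries were from separate animals, per the labels, so p-values measure the spread between fish; the homozygous libraries correlated at r = 0.912 and the heterozygous ones at 0.852 (log2 CPM, over genes). PCR duplicates could not be recognised, so intervals reflect counting error alone. Alternatives were DESeq2's size factors, DESeq2 1.42.0's Wald test, other count filters, pancreas genes left out, the replicate number as a block, an adjusted p of 0.1, and each library left out. The values of 1 member are not reported here.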

Additional observations from a re-analysis of the deposited data

How the results depend on the processing

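The counts of calls depended on the test and on 1 library. DESeq2's Wald test called 53 genes and 1 transporter (slc13a1, log2 fold change 2.17, adjusted p 0.00233), where edgeR called 0 and 0. With each library left out, edgeR called 0 to 45 genes and 0 to 1 transporters, the highest without heterozygous replicate 1, when slc22a16 was the transporter called; a genotype left with 1 fish is then assumed to vary like the other. At an adjusted p of 0.1 edgeR called 0 and 0. The median log2 fold change of the transporters ranged from -0.11 to 0.44 with a library left out. It was negative without homozygous replicate 2, where the median over all genes was -0.10. These fits tested 55 to 63 transporters, so the set differed from the 54 tested with all libraries. Over those 54 genes alone, the median without homozygous replicate 2 was slightly positive, between the values of slc5a11 (0.0097) and slc16a10 (0.0289). The change of sign therefore cannot be read as a change in those 54 genes. Transporters with both homozygous libraries higher numbered 17 to 32, and with both lower 9 to 19, since a genotype with 1 library overlaps less by construction. With no filter beyond 1 count, 8 transporters had both homozygous libraries lower, as more genes were counted. Same-numbered libraries did not deviate together (r = 0.0643 across genes, 2 pairs). The labels name no pairing, and with 2 pairs this r cannot decide whether the numbers pair the fish. With the replicate number as a block edgeR called 0 genes and 0 transporters, 8 of 54 transporters and 573 of all 9701 genes had an unadjusted p under 0.05, and the transporter median was 0.32. Of the 42 named and tested transporters 23 kept the sign of their log2 fold change under every alternative run, and 42 kept it outside the leave-one-out fits. The other 19 changed sign when a library was left out, over these ranges: slc17a5 (-0.83 to 1.097), slc35a4 (-0.046 to 0.75), slc37a4a (-0.18 to 0.45), slc16a9a (-0.034 to 0.86), slc28a1 (-0.21 to 1.80), slc16a10 (-0.29 to 0.30), slc35a1 (-0.12 to 0.89), slc5a6a (-0.43 to 1.94), slc29a2 (-0.077 to 0.88), slc23a1 (-0.67 to 0.69), slc22a4 (-0.22 to 0.54), slc17a9b (-0.28 to 0.37), slc10a7 (-0.71 to 0.33), slc27a1a (-0.86 to 0.77), slco1d1 (-0.35 to 0.91), slc5a8l (-0.13 to 0.79), slc5a9 (-0.34 to 0.65), slc35a3a (-0.30 to 0.66), slc35a5 (-0.79 to 0.77). The 13 transporters that were not tested had low counts or counts held almost wholly by heterozygous replicate 2. The latter holds for slc22a16 (222 counts in total) and slc27a1b (148).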
